A study of Mus musculus with 18 samples.

Results

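The serotonin neuron genes examined here were Tph2, Slc6a4, Fev, Gata3, Htr1a, Lmx1b and Maob. Each was read from its brightest probeset paired with a single gene symbol, and 6 of the 7 were measured among 19937 genes. Fev was not analysed here. The members were chosen from their level, their range over the arrays and their pairwise correlations, so those values are given below as description and were not tested.

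Serotonin is made from tryptophan by a hydroxylase, TPH2 in neurons and TPH1 mainly in the pineal gland and the gut, followed by an aromatic decarboxylase. It is packed into vesicles, cleared from the synapse by the transporter SERT and degraded by monoamine oxidases. The cell bodies of brain serotonin neurons lie in the raphe nuclei of the brainstem. The hypothalamus receives their axons, which carry little mRNA, and its own neurons carry serotonin receptors.

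RNA came from microdissected, frozen mouse hypothalamus and was hybridised to 18 arrays, from mice deficient in Wfs1 and wild-type mice. Wfs1 encodes wolframin, a membrane glycoprotein of the endoplasmic reticulum. The sample labels name the strain background 129SV and the series text names it 129S6. The sources used here do not give age, sex or the structure of the Wfs1 allele. They do not say in words that the arrays come from different animals. Each title carries its own second number, 18 different ones in all, whose meaning is not given. The p-values cover array-to-array spread, which may be technical. Each array carries a pair of genotype labels, the ending of its title and its genotype field. The title also opens with KO or WT, which is the same as the field on all 18 arrays. By the ending there were 10 ko and 8 wt arrays, and by the field 9 KO and 9 WT. Written with the ending first, 5 arrays were ko/KO and 4 wt/WT, where the labels agree, and 5 were ko/WT and 4 wt/KO, where they contradict each other.

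Wfs1 itself did not separate the arrays by either label. It was 8.31 ± 0.31 log2 units on arrays with the ending ko and 8.12 ± 0.25 with the ending wt (SD, n = 10 and 8; exact permutation test, two-sided, p = 0.206). By the field it was 8.25 ± 0.35 for KO and 8.20 ± 0.24 for WT (SD, n = 9 each; exact permutation p = 0.694). On the agreeing arrays it was 8.33 ± 0.40 for ko/KO and 8.09 ± 0.22 for wt/WT (SD, n = 5 and 4; exact permutation p = 0.365), and on the contradicting ones 8.28 ± 0.25 for ko/WT and 8.16 ± 0.31 for wt/KO (SD, n = 5 and 4; exact permutation p = 0.556). The Benjamini-Hochberg adjusted value was 0.694 for each of the 4 tests, and the difference by field was -0.0029 without the array ko/KO 1. On every array Wfs1 was either at most 8.07 or at least 8.36, and each label group held arrays on both sides of that gap. The genotypes are therefore in doubt, and each group is named by its labels. The second number of the title divides with the ending, since all 10 ko arrays have lower numbers than all 8 wt arrays, whereas the numbers of the 9 KO and 9 WT arrays by the field overlap. Array medians ran from 7.10 to 7.19 log2 units and lower quartiles from 5.81 to 6.0, and pairs of arrays correlated at 0.975 to 0.991 across probesets. The array ko/WT 4 stood apart in Xist, the RNA that silences an X chromosome in female cells, at 5.93 against 10.31 or more on the other arrays. The array wt/WT 3 stood apart in the choroid plexus gene Ttr, at 12.80.

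The tissue label was checked against genes that define the hypothalamus. Of 12 such genes 11 were measured. Of these 8 lay more than 1 log2 unit above the lower quartile of their array on all 18 arrays. Among these 8 were the hormone genes Oxt at 10.02 to 11.15 and Avp at 9.44 to 10.89. Of the rest Gal passed this margin on 17 arrays and Rax on 2. Crh, another hormone gene, was at 5.77 to 6.64 and passed it on 0. Of 10 hindbrain Hox genes 7 passed that margin on no array and 2 on every array, Hoxa4 and Hoxb3. Among all genes 58.3% passed it on all 18 arrays and 30.9% on none. Of 9 measured dopamine and noradrenaline neuron genes 6 passed it on all 18, among them Slc6a3 at 9.06 to 10.75. Of 5 measured thalamic and cortical markers 4 did, among them Prkcd at 10.70 to 11.44. Among genes of noradrenaline neurons, Dbh was below the lower quartile on every array, at most 5.44, while Slc6a2 (6.40 to 7.04) and Phox2a (6.30 to 7.02) were above it on all 18 and passed the margin on 1 array each. Levels of different probes cannot be set against each other, so these counts describe the signal only.

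The upstream sequences of Tph2, Slc6a4 and Gata3 are shown here, since these 3 members had the widest ranges over the arrays. Each is the 250 bases before a RefSeq transcription start in build GRCm38.p6, 5′ to 3′ on the gene's strand. They are chr10:115185023-115185272 on the minus strand for Tph2, chr11:76998347-76998596 on the plus strand for Slc6a4, and chr2:9878601-9878850 on the minus strand for Gata3. Of the 7 listed genes, 5 had an entry in the table. Capitals mark matches to 4 motifs searched on both strands, GATAA (GATA factors), CGGAAG (ETS factors), TAATTA (LIM homeodomain factors) and TATAAA (the TATA box).
Tph2: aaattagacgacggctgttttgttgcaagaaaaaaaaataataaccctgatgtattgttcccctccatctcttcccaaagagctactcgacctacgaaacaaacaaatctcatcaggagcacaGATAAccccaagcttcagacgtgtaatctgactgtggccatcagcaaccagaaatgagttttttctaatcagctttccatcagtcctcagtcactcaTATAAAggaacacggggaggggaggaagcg
Slc6a4: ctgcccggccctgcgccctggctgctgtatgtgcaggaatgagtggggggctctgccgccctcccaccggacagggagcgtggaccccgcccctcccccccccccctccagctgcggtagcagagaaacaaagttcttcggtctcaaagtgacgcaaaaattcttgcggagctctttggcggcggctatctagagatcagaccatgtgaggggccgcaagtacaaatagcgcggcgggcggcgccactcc
Gata3: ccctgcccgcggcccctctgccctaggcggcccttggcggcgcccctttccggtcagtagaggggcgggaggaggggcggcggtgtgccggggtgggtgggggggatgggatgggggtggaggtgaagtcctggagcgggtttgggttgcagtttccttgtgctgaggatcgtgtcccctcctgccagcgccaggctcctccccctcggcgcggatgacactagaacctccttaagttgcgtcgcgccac

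The Tph2 window held GATAA at 127 to 123 bases before the start and TATAAA at 30 to 25 bases before it. Among all 32851 windows of this length, 22.6% held GATAA and 12.4% held TATAAA on either strand. CGGAAG was in 13.6% and TAATTA in 4.84% of all windows, and neither was found in the 3 shown. The Slc6a4 and Gata3 windows held none of the 4 motifs, in these letters. GC content was 43.6% for Tph2, 64.8% for Slc6a4 and 70.0% for Gata3, against a median of 52.4% over all windows.

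Tph2 encodes the neuronal tryptophan hydroxylase, the rate-limiting enzyme of serotonin synthesis, and its level varied more than that of nearly every gene on the arrays. On the ko/KO arrays it was 7.48, 5.75, 5.85, 6.49 and 6.30 log2 units, against 5.85, 6.24, 5.79 and 7.53 on the wt/WT arrays. On the ko/WT arrays it was 5.96, 5.84, 5.99, 8.06 and 7.20, against 5.61, 5.89, 5.82 and 6.82 on the wt/KO arrays. Each of the 4 groups held at least 1 array well above the rest of its group, and the groups overlapped in both comparisons. The distance between the highest and the lowest array was 2.45 log2 units, or 5.46-fold, wider than for 99.95% of genes, whose median range was 0.50. Tph2 lay above the lower quartile of all values on 11 of 18 arrays and more than 1 log2 unit above it on 4. For comparison, 58.3% of all genes passed that margin on all 18 arrays.

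Slc6a4 encodes SERT, the plasma membrane transporter that returns serotonin to the neuron. Its level was 6.80, 6.52, 6.34, 6.70 and 6.46 on the ko/KO arrays, against 6.46, 6.62, 6.59 and 7.31 on the wt/WT arrays. It was 6.51, 6.60, 6.13, 7.59 and 6.85 on the ko/WT arrays, against 6.16, 6.40, 6.41 and 6.87 on the wt/KO arrays. The highest values were again on ko/WT 4 and wt/WT 4, the arrays that led for Tph2, and the groups overlapped. The array ko/WT 4 is also the one that stood apart in Xist, at 5.93, while wt/WT 4 was at 10.50. Whether that bears on these levels was not tested. The range was 1.46 log2 units (2.75-fold), wider than for 99.4% of genes, and 2 arrays passed the margin of 1 log2 unit.

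Gata3 encodes a zinc finger transcription factor required for serotonin neurons, mainly of the caudal raphe, and also active in other midbrain and hindbrain neurons. It was 6.97, 6.58, 6.69, 6.63 and 6.79 on the ko/KO arrays, against 6.59, 6.52, 6.46 and 7.25 on the wt/WT arrays. On the ko/WT arrays it was 7.07, 7.05, 7.01, 7.40 and 6.72, against 6.65, 6.78, 6.77 and 6.97 on the wt/KO arrays. The array ko/WT 4 was highest for this gene too, but 3 ko/WT arrays low in Tph2 were also at 7.01 to 7.07. The range was 0.94 log2 units (1.92-fold), wider than for 94.4% of genes, and 7 arrays passed the margin.

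**Figure D1:**
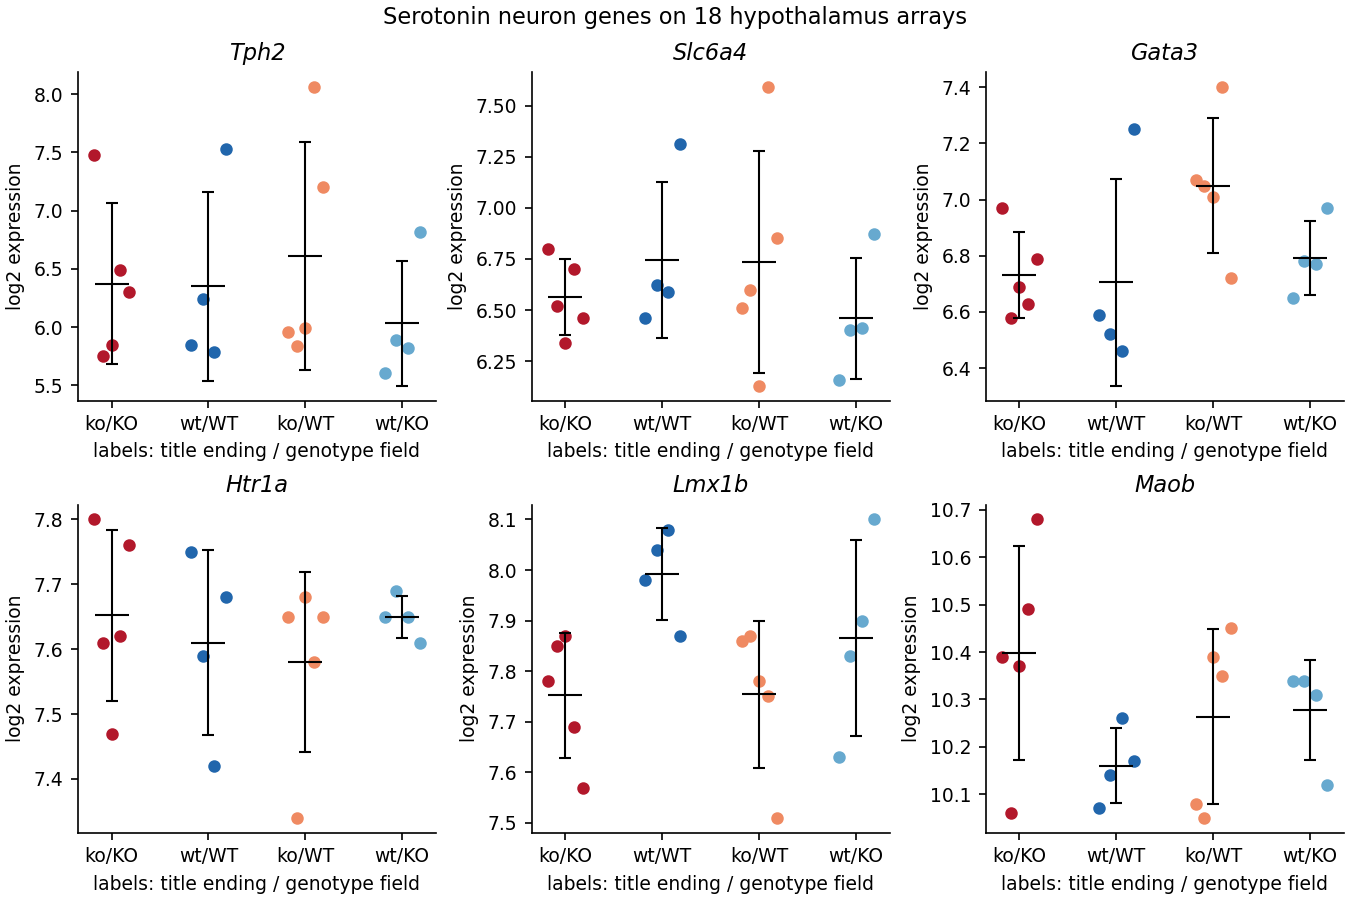
Log2 expression of the 6 measured serotonin neuron genes on each array, grouped by title ending and genotype field, with black bars for the mean and SD of each group (n = 5, 4, 5 and 4). Tph2 spans 5.61 to 8.06 and each group has both low and high arrays, while Htr1a spans 7.34 to 7.80.

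The remaining members had narrower ranges. Htr1a, which encodes the inhibitory 5-HT1A receptor of serotonin neurons and of their targets, was 7.80, 7.61, 7.47, 7.62 and 7.76 on the ko/KO arrays, against 7.75, 7.59, 7.42 and 7.68 on the wt/WT arrays. It was 7.65, 7.34, 7.68, 7.58 and 7.65 on the ko/WT arrays, against 7.65, 7.69, 7.65 and 7.61 on the wt/KO arrays. The groups overlapped almost completely. Its range of 0.46 log2 units (1.38-fold) was wider than for 40.6% of genes.

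Lmx1b encodes a LIM homeodomain factor needed for serotonin neurons to form and be maintained, and it is also expressed in the posterior hypothalamus. It was 7.78, 7.85, 7.87, 7.69 and 7.57 on the ko/KO arrays, against 7.98, 8.04, 8.08 and 7.87 on the wt/WT arrays. On the ko/WT arrays it was 7.86, 7.87, 7.78, 7.75 and 7.51, against 7.63, 7.83, 7.90 and 8.10 on the wt/KO arrays. The wt/WT arrays were all at or above the highest ko/KO array, and the other groups overlapped. The range was 0.59 log2 units (1.51-fold), wider than for 65.5% of genes.

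Maob encodes monoamine oxidase B, a mitochondrial enzyme that is found in serotonin neurons, histamine neurons and astrocytes. It was 10.39, 10.06, 10.37, 10.49 and 10.68 on the ko/KO arrays, against 10.07, 10.14, 10.26 and 10.17 on the wt/WT arrays. It was 10.08, 10.05, 10.39, 10.35 and 10.45 on the ko/WT arrays, against 10.34, 10.34, 10.31 and 10.12 on the wt/KO arrays. Of the ko/KO arrays 4 lay above every wt/WT array and ko/KO 2 lay below all of them. The range was 0.63 log2 units (1.55-fold), wider than for 71.3% of genes, and the level was over 2 log2 units above the lower quartile on all 18 arrays. Htr1a and Lmx1b passed the margin of 1 log2 unit on all 18 arrays as well.

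The 6 genes did not vary as a single set. Tph2 and Slc6a4 followed each other over the 18 arrays with r = 0.889 and rho = 0.705. Slc6a4 ranked first of 19936 genes by its Pearson correlation with Tph2. By rho other genes came higher, among them Aldh1a1 at 0.803 and Slc12a2 at 0.733. Without ko/WT 4 and wt/WT 4, the arrays farthest from the Tph2 median, Tph2 and Slc6a4 still had r = 0.756 over 16 arrays. The median correlation of all genes with Tph2 was -0.011, and 0.135% of them reached 0.7. These correlations are descriptions of arrays that share a tissue and a normalization.

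Gata3 followed the pair less tightly, at r = 0.635 with Tph2 (rho = 0.545) and 0.602 with Slc6a4 (rho = 0.273). Without ko/WT 4 and wt/WT 4 the values of r were 0.264 and 0.047, so both values of r leaned on those arrays. Without ko/WT 4 alone they were 0.467 and 0.382. The values of rho were not worked out without these arrays. Htr1a had r = 0.267 with Tph2 and -0.025 with Slc6a4, and Lmx1b had -0.229 and 0.018. Maob had r = 0.217 and rho = 0.422 with Tph2, and r = -0.073 with Slc6a4. Leaving out 1 array turned the sign of Slc6a4 with Htr1a (-0.097 to 0.047), with Lmx1b (-0.089 to 0.133) and with Maob (-0.184 to 0.00027). In whole tissue, a lower number of cells of a type and less RNA per cell cannot be told apart.

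**Figure D2:**
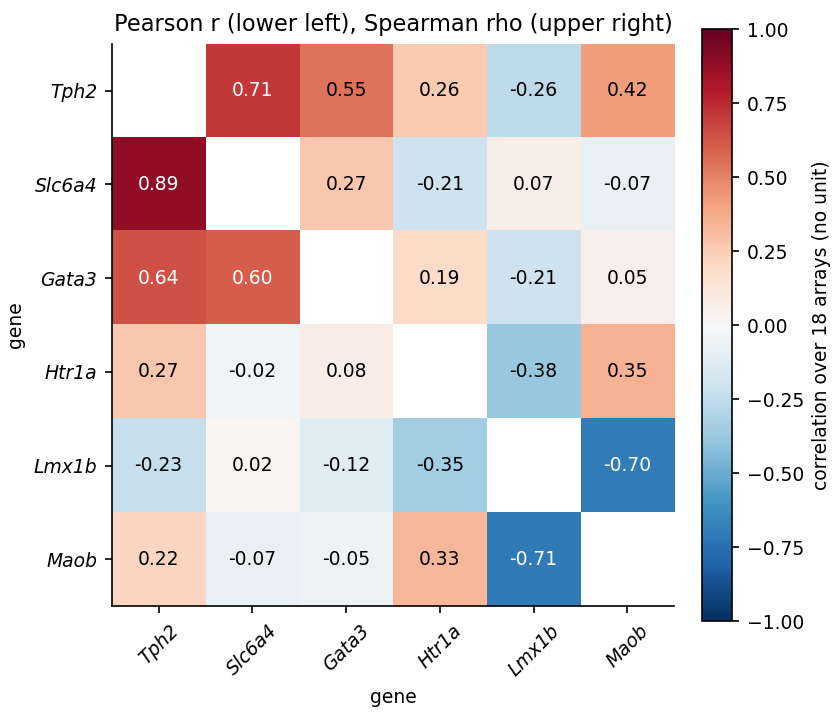
Correlation of each pair of serotonin neuron genes over 18 arrays, Pearson r below the diagonal and Spearman rho above it, on a colour scale from -1 to 1. Tph2 and Slc6a4 stand out at r = 0.889, and Lmx1b and Maob run opposite at r = -0.707.

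Lmx1b and Maob ran opposite to each other, with r = -0.707 and rho = -0.699, and r = -0.575 over 16 arrays without ko/KO 5 and ko/WT 5. Many other genes ran opposite to Maob as strongly. From the highest r down, Lmx1b ranked 19253 of 19936 genes with Maob, and the 5th percentile of all genes was -0.673. Lmx1b rose and Maob fell with the median of all values on the array. How many other genes do so was not worked out. For Lmx1b the correlation with the array median was r = 0.815 and rho = 0.802 (permutation p = 0.00011, adjusted p = 0.00066 over 6 genes, and r = 0.798 without 2 arrays). For Maob it was r = -0.730 and rho = -0.726 (permutation p = 0.00049, adjusted p = 0.00147, and r = -0.699 without 2 arrays). Tph2 had r = 0.025 with the array median (adjusted p = 0.923) and Slc6a4 0.223 (adjusted p = 0.563), both by permutation. After quantile normalization the correlation of Lmx1b with Maob was -0.644. The part of the array median in this pattern was not tested further, and the relation was examined after the data were seen.

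**Figure D3:**
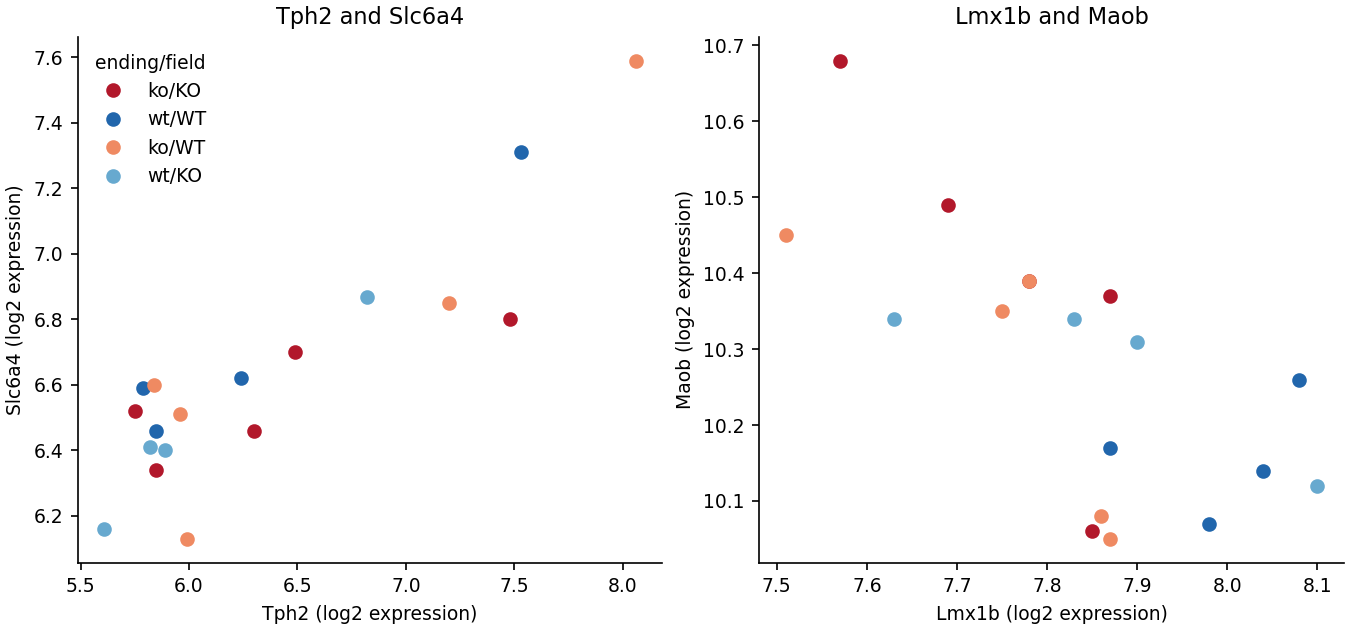
Slc6a4 against Tph2 (left) and Maob against Lmx1b (right), each point an array on log2 axes, coloured by title ending and genotype field. The left panel rises to ko/WT 4 at 8.06 and 7.59 and the right panel falls from upper left to lower right, where the points of ko/KO 1 and ko/WT 3 coincide.

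The arrays high in Tph2 were also neighbours in the first number of the sample title, which runs from 1 to 20 over the series and whose meaning is not given. The 7 arrays highest in Tph2 were those numbered 4 to 10, at 6.30 to 8.06, against 5.61 to 6.24 on the 11 arrays with lower or higher numbers. They were 3 ko/KO, 2 ko/WT, 1 wt/WT and 1 wt/KO arrays. Of the other 19936 genes, 5 (0.0251%) had the same 7 arrays highest, and 3 genes had the same 7 lowest. For Slc6a4, 6 of its 7 highest arrays were among those of Tph2, for Maob 5, for Gata3 4, for Htr1a 3 and for Lmx1b 1. The 7 arrays were set by Tph2 itself. How many arrays other genes share with them was not worked out, so these counts are description only. This order was noticed after the values were seen and was not tested.

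**Figure D4:**
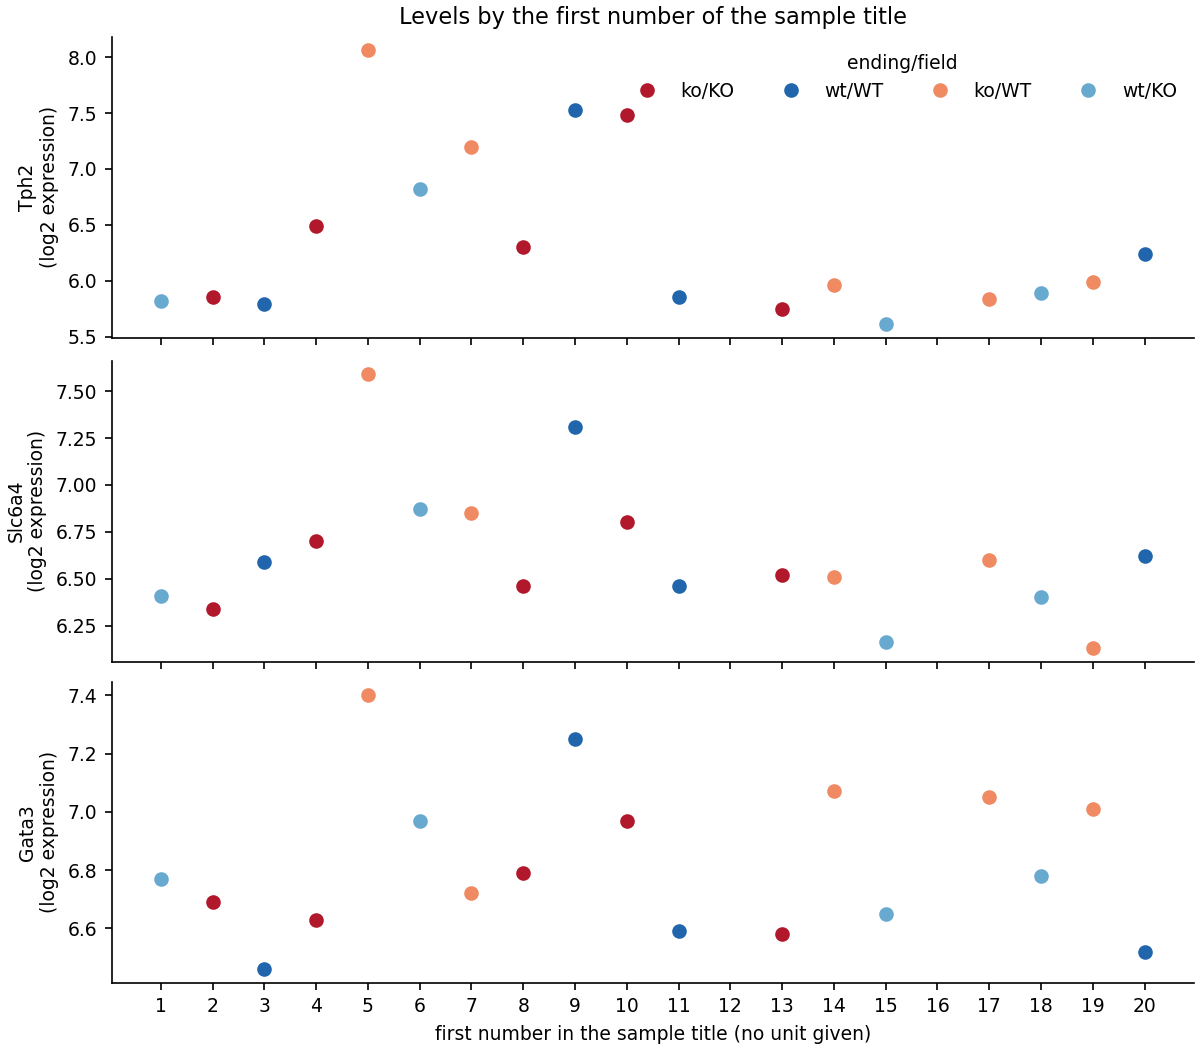
Levels of Tph2, Slc6a4 and Gata3 in log2 units against the first number of the sample title, each point an array coloured by title ending and genotype field. Arrays numbered 4 to 10 hold Tph2 at 6.30 to 8.06, above all others, and most of the high Slc6a4 values.

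The genes most like each member over the 18 arrays were named by a rule that left out predicted genes and genes dim on most arrays. For Tph2 they were Pip4k2a at r = 0.800 (rho = 0.718), Fgfr2 at 0.797, Slc12a2 at 0.775, Ugt8a at 0.774 and Fgf10 at 0.762. Ugt8a makes galactolipids of myelin, Fgfr2 is a fibroblast growth factor receptor and Slc12a2 a sodium, potassium and chloride cotransporter. Without the 2 arrays farthest from the Tph2 median the 5 values lay between 0.648 for Pip4k2a and 0.707 for Ugt8a. For Slc6a4 they were the secreted protease gene Klk6 at 0.807 (rho = 0.665), Lmntd2 at 0.772, Fgfr2 at 0.695, the potassium channel subunit gene Kcnab2 at 0.683 and Atp10b at 0.680.

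Many more genes resembled the other pair of members. For Lmx1b the closest were Obsl1 at 0.914, Slc34a3 at 0.912, Tnfaip2 at 0.907, Sema3f at 0.903 and Shisa3 at 0.898, and 5.02% of all genes reached 0.7. For Maob they were Efhc2 at 0.942, Psmd12 at 0.922, Polr2b at 0.922, Bclaf1 at 0.921 and Dennd10 at 0.921, and 8.57% of all genes reached 0.7. Efhc2 lies 2 protein-coding genes from Maob on the X chromosome in the RefSeq order. Maoa, the neighbouring gene for monoamine oxidase A, had r = 0.797 with Maob.

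Genes that other cells and regions express varied with Tph2 as well, and their part in its variation was not tested. All 5 measured oligodendrocyte markers had a correlation with Tph2 above 0, with a median of 0.514 and 0.719 for Mbp, which encodes myelin basic protein. Of the 11 measured genes that define the hypothalamus 10 had a correlation below 0, with a median of -0.398. Among them were Npy at -0.666 (rho = -0.305) and Oxt at -0.652 (rho = -0.682). All 10 hindbrain Hox genes were below 0, with a median of -0.206, and so were the 6 choroid plexus markers, with a median of -0.222. Of these Hox genes 7 passed the margin of 1 log2 unit on no array. With Lmx1b all 10 were above 0 (median 0.586, against 0.119 over all genes). Over all genes the correlation with Tph2 had a median of -0.011, a 5th percentile of -0.462 and a 95th of 0.456. The share of all genes on each side of 0 was not worked out. Of 8 astrocyte markers 5 were above 0 (median 0.336), and 8 of 8 were above 0 with Maob (median 0.440, against -0.110 over all genes).

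Tph2, Lmx1b and Maob were each tested against 14 further genes, 42 relations in all. By Pearson's r none passed an adjusted p of 0.05, and by Spearman's rho 4 did. With Tph2, Foxb1, a transcription factor of the mammillary region, had r = -0.646 and rho = -0.647 (permutation adjusted p = 0.107 for r and 0.0472 for rho) and r = -0.577 without 2 arrays. The orexin gene Hcrt had r = -0.560 and rho = -0.700 (permutation adjusted p = 0.111 and 0.0315), and r = -0.430 without 2 arrays. Slc6a3, the dopamine transporter gene, had r = 0.529 and rho = 0.645 (permutation adjusted p = 0.111 and 0.0472), and r = 0.425 without 2 arrays. The fourth was Maob with Hcrt, at r = -0.529 and rho = -0.712 (permutation adjusted p = 0.111 and 0.0315), and r = -0.274 without 2 arrays. Over all genes the 5th percentile of r with Maob was -0.673, so this r was not unusual for Maob. With Tph2 the 5th and 95th percentiles of r were -0.462 and 0.456. The spread of rho over all genes was not worked out. Hdc, the enzyme that makes histamine, had r = -0.585 and rho = -0.384 with Tph2 (permutation adjusted p = 0.107 and 0.244), and r = -0.284 without 2 arrays.

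By title ending, none of the 6 genes passed the threshold. Limma called 0 of 19937 genes (0%) at an adjusted p of 0.05, with a lowest adjusted p of 0.884 and 923 genes at an unadjusted p under 0.05. Means were higher for ko than for wt in 4 of the 6 members, whose median log2 difference was 0.080, against 51.8% of all genes and a median of 0.0030. Tph2 differed by 0.30 (95% interval -0.34 to 0.93, limma adjusted p = 0.887), and the difference was 0.12 without ko/WT 4, 0.19 without ko/KO 1 and 0.49 without wt/WT 4. Slc6a4 differed by 0.048 (interval -0.28 to 0.37, limma adjusted p = 0.960) and Gata3 by 0.14 (interval -0.084 to 0.37, limma adjusted p = 0.884). Without ko/WT 4 Slc6a4 was -0.057 and Gata3 0.086.

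Lmx1b was the only member whose interval by title ending left out 0. It averaged 7.75 ± 0.13 on arrays with the ending ko and 7.93 ± 0.16 with the ending wt (SD, n = 10 and 8), a difference of -0.18 with a 95% interval of -0.31 to -0.041 (unadjusted limma p = 0.013, adjusted p = 0.884). Its correlation with the array median, given above, stands beside that value, and after quantile normalization the difference was -0.19 (limma adjusted p = 0.979). Maob differed by 0.11 (interval -0.045 to 0.27, limma adjusted p = 0.884) and Htr1a by -0.014 (interval -0.13 to 0.11, limma adjusted p = 0.969).

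By the genotype field limma again called 0 of 19937 genes (0%), with a lowest adjusted p of 0.694 and 1386 genes at an unadjusted p under 0.05. These are the same arrays divided by the other label, so the comparisons share all their samples. The mean of Tph2 was 6.22 ± 0.61 for KO and 6.50 ± 0.86 for WT (SD, n = 9 each), a difference of -0.27 (interval -0.91 to 0.36, limma adjusted p = 0.810). Slc6a4 differed by -0.22 (interval -0.53 to 0.085) and Gata3 by -0.14 (interval -0.36 to 0.087). Without ko/WT 4 these were -0.077 for Tph2, -0.12 for Slc6a4 and -0.075 for Gata3. Maob differed by 0.13, Htr1a by 0.058 and Lmx1b by -0.058, and 2 of the 6 means were higher for KO.

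**Figure D5:**
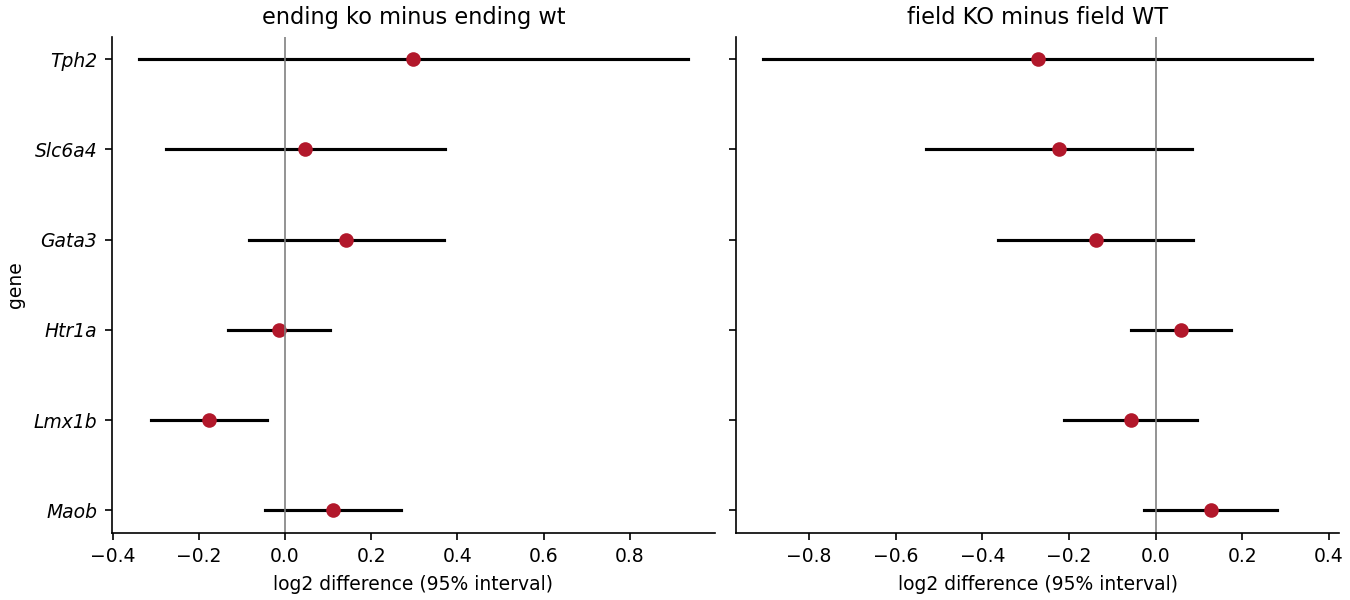
Log2 difference of each serotonin neuron gene with its 95% limma interval, by title ending (ko minus wt, left) and by genotype field (KO minus WT, right). Only the interval of Lmx1b by title ending, -0.31 to -0.041, leaves out 0, and the Tph2 differences of 0.30 and -0.27 have opposite signs.

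The separate sets of arrays gave no call either. Where the labels agree, limma called 0 genes (0%), with a lowest adjusted p of 0.384 and 2218 genes at an unadjusted p under 0.05. Lmx1b differed there by -0.24 (SE 0.084, limma adjusted p = 0.390), Maob by 0.24 (SE 0.11, adjusted p = 0.440) and Tph2 by 0.022 (SE 0.36, adjusted p = 0.985). The Tph2 value was -0.26 without ko/KO 1 and 0.41 without wt/WT 4. Where they contradict each other, limma called 0 genes (0%), with a lowest adjusted p of 0.9998 and 546 genes at an unadjusted p under 0.05. Tph2 was higher there on ko/WT than on wt/KO arrays by 0.575 (SE 0.43, limma adjusted p = 0.9998), a value of 0.21 without ko/WT 4. Gata3 differed by 0.26 (SE 0.12), Slc6a4 by 0.28 (SE 0.24) and Lmx1b by -0.11 (SE 0.099). Without ko/WT 4 Slc6a4 was 0.063 and Gata3 0.17, and without wt/KO 4 Lmx1b was -0.033. An interaction term compared the ko minus wt difference of the field KO arrays with that of the field WT arrays. Limma called 0 genes (0%) for it, with a lowest adjusted p of 0.927 and 1033 genes at an unadjusted p under 0.05.

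The other genes of serotonin handling, listed with earlier results of these data known, gave no call by title ending. Of 12 enzymes and transporters 11 were measured, 7 with a higher and 4 with a lower mean, and 0 passed in either direction (median difference 0.0060). Ddc, the aromatic decarboxylase shared by serotonin and dopamine neurons, was at 8.83 to 9.94 and differed by 0.12. Slc18a2, the vesicular monoamine transporter gene, was at 8.76 to 10.08 and differed by 0.13. Without the array wt/WT 1 these differences were 0.049 and 0.022. Tph1, the hydroxylase gene of the pineal gland and gut, was above the lower quartile on 2 arrays only and at most 6.26.

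All 13 listed serotonin receptor genes were measured, 6 with a higher and 7 with a lower mean for the ending ko, and 0 passed (median difference -0.00375). Htr2c, the receptor of feeding and energy balance circuits, was at 10.48 to 10.85 and differed by 0.083. Htr2a was at 8.07 to 8.59 and differed by 0.066, and without wt/WT 3 by 0.032. Htr3b, a subunit of the serotonin-gated ion channel, differed by -0.22 (SE 0.063, limma adjusted p = 0.884) at a level of 5.77 to 6.43, which never passed the margin of 1 log2 unit. Htr5b had the widest range of the receptors, 6.46 to 7.51, and differed by 0.11, and without wt/KO 2 by 0.032. Of the 6 measured transcription factors of serotonin neuron development that are no members, 3 had a higher and 3 a lower mean, and 0 passed.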

How the data were processed

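The values the authors deposited are on a log2 scale, with 1 value for each probeset on each array. That scale was read from the values (1.11 to 14.54), and that the authors normalized them was inferred from the close array medians. RMA and MAS5 are named per the submitters' processing notes, with no role or version. Such normalization can compress differences at low signal. Scan batches and detection calls were not analysed here.

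Of 34760 probesets the platform annotation paired 21640 with 1 symbol, 1321 with several and 11799 with none. Entrez identifiers of 21553 matched RefSeq (GRCm38.p6), and 0 symbols changed. The brightest single-symbol probeset stood for each of 19937 genes.

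Differences were fitted over all genes with limma 3.58.1 (R 4.3.3) and Benjamini-Hochberg adjustment at 0.05. Correlations used 100000 permutations where tested (Python 3.11.15, scipy 1.17.1). The fit was checked on simulated data with genes drawn independently. In each simulated set, genes picked at random were moved by 0.25, 0.5, 1 or 2 log2 units, all sizes together. A difference of 0.25 log2 units was called for 60% of the changed genes by title ending and 54% by field. On the arrays whose labels agree it was called for 6%, and on those whose labels contradict for 2%. The larger moves ease the adjusted threshold for the smaller ones, so these shares can be too high for data with 0 calls. They also do not hold for a gene as variable as Tph2 (SD 0.74). A count of 0 genes therefore does not exclude differences of that size. The members and lists were chosen with earlier results of these data known. Genes named were the members, Wfs1, listed genes and, for each of Tph2, Slc6a4, Lmx1b and Maob, the 5 genes that are no members, are not predicted, lie above the lower quartile on at least 9 arrays and have the highest r. The motifs were chosen after the sequences were seen.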

Additional observations from a re-analysis of the deposited data

Results flagged for a closer look

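In 28 sets of 4 or 5 arrays, 2 held an array far from the others of its group, where chance gives about 1 in 20. Gata3 was 7.25 on the array labelled wt/WT 4, against 6.46 to 6.59 on the other 3 wt/WT arrays. Maob was 10.12 on the array labelled wt/KO 4, against 10.31 to 10.34 on the other 3 wt/KO arrays.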

How the results depend on the processing

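No paired analysis was possible because the labels carry no replicate numbers shared between groups. Limma called 0 genes in all 5 comparisons under mean probesets, quantile normalization, no dim genes, trended and robust variance, and without each array in turn. Leaving out the dimmest 40% of genes left no value for Tph2, Slc6a4 or Gata3, and raised the share of genes with a higher mean for the ending ko to 66.8%, against 51.8%. With quantile normalization the title-ending difference changed sign for Tph1 (0.000812) and Maoa (-0.011). Over rho in place of r, Tph2 with Slc6a4 was 0.705, Slc6a4 with Gata3 0.273, Tph2 with Maob 0.422, Tph2 with Gata2 -0.021 and Lmx1b with Wfs1 0.033, and 4 of 42 partner relations passed. Without the 2 arrays farthest from the median, r was 0.756 for Tph2 with Slc6a4, 0.264 for Tph2 with Gata3, 0.047 for Slc6a4 with Gata3 and -0.575 for Lmx1b with Maob. The causes were not tested.

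Leaving out 1 array turned these signs. By title ending the values lay between -0.057 and 0.15 for Slc6a4, -0.044 and 0.017 for Htr1a, and -0.017 and 0.053 for Maoa. Where the labels agree they lay between -0.26 and 0.41 for Tph2, -0.28 and 0.0073 for Slc6a4, -0.055 and 0.21 for Gata3, and -0.021 and 0.089 for Htr1a. Where they contradict each other Maob lay between -0.066 and 0.040, and by field Wfs1 lay between -0.0029 and 0.10. Correlations ranged from 0.829 to 0.918 for Tph2 with Slc6a4, 0.467 to 0.699 for Tph2 with Gata3, 0.382 to 0.715 for Slc6a4 with Gata3 and -0.752 to -0.636 for Lmx1b with Maob. Those of Gata3 changed sign with Htr1a (-0.093 to 0.265), Lmx1b (-0.202 to 0.011) and Maob (-0.139 to 0.019). The number of arrays limits the precision.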
